A study of Mus musculus with 12 samples.

Results

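Oncofetal genes are genes that the fetal liver uses, that the adult liver turns down or off after birth, and that liver tumours often use again. The 8 genes examined here were Afp, H19, Igf2, Gpc3, Igf2bp3, Cd24a, Dlk1 and Igfbp1, taken by name, and 7 of them had a row among the 25676 genes of the deposited expression table. H19 is not analysed here. Expression was measured by RNA sequencing of whole livers of C57BL/6 mice, 3 to 4 months old. Of the 12 mice, 6 were labelled wild type (WT) and 6 carried a knockout of Yap1 (KO), each with 3 males and 3 females. Yap1 encodes YAP1, the transcriptional co-activator that the Hippo kinase pathway restrains. The knockout was made with Cre recombinase under the Foxa3 promoter, a gene of the embryonic endoderm, so hepatocytes and bile duct cells are its targets and other cells of the liver could keep the gene. The labels do not say whether the WT mice carried the Cre transgene or floxed alleles. Each library came from 1 mouse, so p-values measure the spread between these animals, and replicate numbers only follow the order of deposition.

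The oncofetal genes fall into a few roles. Igf2 is a fetal growth factor, Igfbp1 is a secreted protein that binds insulin-like growth factors, and Igf2bp3 is an RNA-binding protein of fetal tissues and tumours that binds Igf2 and other transcripts. Afp encodes alpha-fetoprotein, the main serum protein of the fetal liver and the classical serum marker of hepatocellular carcinoma. Gpc3 encodes glypican 3, a heparan sulfate proteoglycan of the cell surface used in the diagnosis of the same tumour. Dlk1 is a transmembrane protein of hepatoblasts, the fetal precursors of hepatocytes and bile duct cells, and Cd24a encodes a small anchored surface protein found on progenitor and bile duct cells. Igfbp1 differs from the rest in that adult hepatocytes also make it, above all in fasting and under cellular stress.

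Each library held between 19650995 and 27826465 whole reads, as recovered from the steps of its values, and between 14321 and 15482 genes above 0. Values were TPM (reads divided by gene length and scaled so that each library has the same sum). Yap1 ranged from 23.0 to 34.9 TPM in the 6 WT libraries and from 0.994 to 3.11 TPM in the 6 KO libraries, so every library matched its genotype label. TPM has a fixed sum, so its values are relative to all other transcripts of a library. Mup transcripts, which encode major urinary proteins, took 3.14 to 15.8% of TPM in WT and 0.160 to 0.836% in KO. The log2(TPM + 1) difference of the median gene, KO minus WT, was 0.35. It was 0.24 when TPM was recomputed without the Mup genes, so most of the shift remained, and -0.04 after the libraries were rescaled by median-of-ratios size factors. Genotype differences of the oncofetal genes are therefore given on both scales below; levels, values without a library and other differences are as deposited unless said otherwise. Adjusted p-values are Benjamini-Hochberg values over the 12278 genes with a mean of at least 0.5 TPM, with 0.05 as the threshold.

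In the KO livers, 3 of the 5 testable oncofetal genes were higher: Igf2bp3, Afp and Igfbp1. The limma model called all 3 higher (adjusted p under 0.05, 6 KO against 6 WT), also after rescaling, and called none lower. The background was high: 54.9% of all tested genes passed in either direction, 50.1% as higher and 4.82% as lower. After rescaling, 39.6% passed, 20.9% as higher and 18.7% as lower. Gpc3 and Cd24a did not pass, and Igf2 and Dlk1 were under the limit of 0.5 TPM and are described from their reads and an exact permutation test. In whole tissue, fewer cells of a type and less RNA per cell cannot be told apart.

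**Figure D1:**
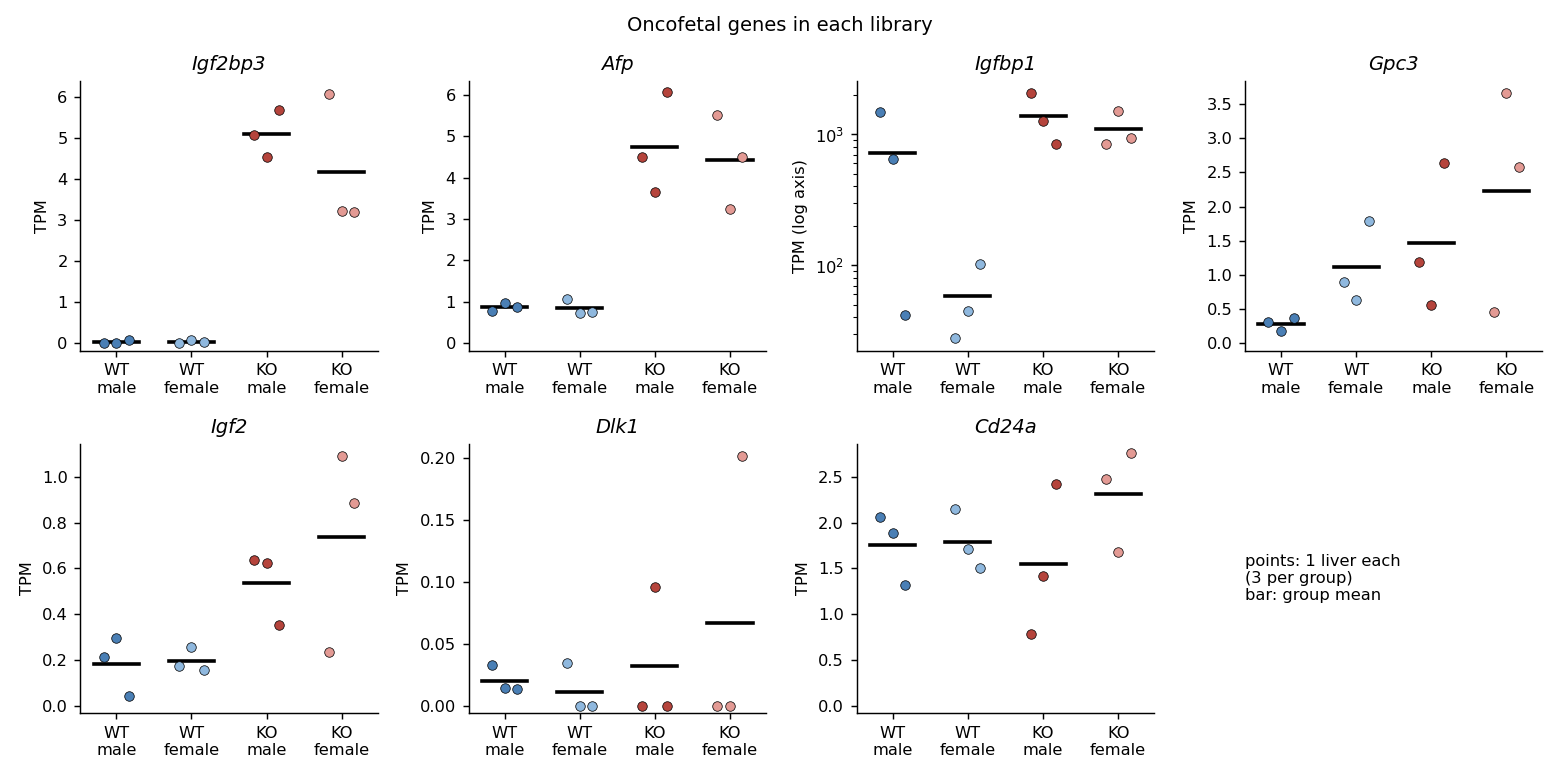
Expression of the 7 oncofetal genes in TPM (y axis; logarithmic for Igfbp1 and linear elsewhere) in the 4 groups of 3 livers (x axis), with 1 point per liver and a bar at the group mean. For Igf2bp3 and Afp all 6 KO livers lie above all 6 WT livers, for Igfbp1 WT male 1 lies inside the KO range and WT male 2 just below it, and for Gpc3, Igf2, Dlk1 and Cd24a the genotypes overlap.

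The promoters of the 3 genes that rose are shown so that their letters can be set beside the values; each is the RefSeq window of 300 bases, 250 before and 50 after the annotated start, on GRCm38.p6. The Afp window is chr5:90490464-90490763 on the plus strand, the Igf2bp3 window chr6:49214905-49215204 on the minus strand and the Igfbp1 window chr11:7197537-7197836 on the plus strand. Sequences are written 5′ to 3′, and capitals mark matches to 4 motifs: GGAATG (the core bound by TEAD factors, the DNA-binding partners of YAP1), CAAAACA (FOXO factors, which act on Igfbp1 in fasting) and GTTAAT (part of the site of HNF1 factors), each searched on both strands, and TATAAA (the TATA box) on the given strand. None of these motifs overlaps another in the windows shown.
Afp: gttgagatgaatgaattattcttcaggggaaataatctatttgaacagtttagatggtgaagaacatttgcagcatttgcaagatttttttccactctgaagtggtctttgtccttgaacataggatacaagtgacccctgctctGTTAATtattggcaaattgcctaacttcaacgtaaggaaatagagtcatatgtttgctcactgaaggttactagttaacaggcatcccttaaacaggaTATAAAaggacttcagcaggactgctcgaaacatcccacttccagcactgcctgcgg
Igf2bp3: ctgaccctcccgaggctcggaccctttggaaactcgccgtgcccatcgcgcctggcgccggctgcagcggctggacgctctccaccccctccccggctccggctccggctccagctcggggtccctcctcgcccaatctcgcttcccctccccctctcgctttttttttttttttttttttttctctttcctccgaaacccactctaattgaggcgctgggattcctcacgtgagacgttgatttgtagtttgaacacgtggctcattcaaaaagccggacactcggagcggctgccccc
Igfbp1: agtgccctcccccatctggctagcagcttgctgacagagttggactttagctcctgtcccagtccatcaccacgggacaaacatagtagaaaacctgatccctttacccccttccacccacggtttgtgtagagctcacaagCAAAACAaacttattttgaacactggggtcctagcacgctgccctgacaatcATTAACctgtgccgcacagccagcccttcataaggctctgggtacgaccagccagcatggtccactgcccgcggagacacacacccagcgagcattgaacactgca
The Afp window held an HNF1 match that begins 105 bases before the RefSeq start, and a TATA box that begins 7 bases before it and 30 bases before the start of the gene in GENCODE. The Igfbp1 window held a FOXO match beginning 108 bases before the RefSeq start and an HNF1 match on the opposite strand, at 56 bases before it. In the Igf2bp3 window none of the 4 motifs was found. None of these 3 windows held GGAATG, which occurs in 14.7% of the 32851 RefSeq windows of this length. The FOXO letters occur in 6.28% of all windows, the HNF1 letters in 7.10% and the TATA box in 8.32%. Windows were present for 6 of the 8 genes. Of the 4 alternative Igf2 windows, 3 held GGAATG, and the Gpc3 and Dlk1 windows held none of the 4 motifs. A match describes the letters only and is not evidence of binding.

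Igf2bp3 (ENSMUSG00000029814, chromosome 6, 49085223 to 49214957, minus strand, GRCm38) went from near silence to a low but steady level. In WT males 1 to 3 it stood at 0, 0 and 0.0881 TPM, and in WT females 1 to 3 at 0, 0.0868 and 0.0327 TPM. In KO males it stood at 5.07, 4.54 and 5.68 TPM, and in KO females at 6.09, 3.22 and 3.19 TPM. No KO library came near any WT library, and 3 WT libraries had no read at all. Over the 6 WT libraries 11 reads were counted, with an exact 95% Poisson interval of 5.49 to 19.7, against 1193 reads over the 6 KO libraries (1126 to 1263). These intervals cover counting error only. The mean was 0.0346 ± 0.0429 TPM in WT and 4.63 ± 1.22 TPM in KO (SD, n = 6 each), a ratio of means of 134. On the log2(TPM + 1) scale, which understates changes of low genes, the difference was 2.42 (SE 0.14, limma adjusted p = 2.13e-08), and 2.22 after rescaling. A fit to the recovered reads with limma-voom put the log2 difference at 6.84 (adjusted p = 2.40e-06), and the authors' deposited table lists a log2 fold change of 6.78. The rise was present in males, with a log2 difference of 2.56 (rescaled 2.36, limma adjusted p = 1.09e-06 as deposited), and in females, with 2.27 (rescaled 2.08, limma adjusted p = 3.75e-06 as deposited).

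The order of the 7 genes by mean TPM in WT was Igfbp1, Cd24a, Afp, Gpc3, Igf2, Igf2bp3 and Dlk1, where Afp and Gpc3, Gpc3 and Igf2, and Igf2bp3 and Dlk1 differed by less than the larger of their SDs. Igfbp1 and Cd24a met the same criterion through the wide spread of Igfbp1, although no WT value of Igfbp1, from 27.6 TPM up, overlapped those of Cd24a, up to 2.14 TPM. In KO the order was Igfbp1, Igf2bp3, Afp, Cd24a, Gpc3, Igf2 and Dlk1, where the same held for Igf2bp3 and Afp, Cd24a and Gpc3, and Gpc3 and Igf2. Igf2bp3 thus moved from the sixth place to the second. The last 1529 bases of the Igf2bp3 gene region overlap Malsu1, a mitochondrial ribosome assembly gene on the opposite strand, and whether the counting used strand is not given in the sources used here. Malsu1 was at 5.58 to 10.7 TPM in the WT libraries in which Igf2bp3 was at or near 0, and at 7.61 to 15.9 TPM in KO.

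Afp (ENSMUSG00000054932, chromosome 5, 90490737 to 90508907, plus strand) rose about as evenly across animals. It measured 0.790, 0.980 and 0.884 TPM in WT males and 1.07, 0.726 and 0.752 TPM in WT females. In KO males it measured 4.50, 3.66 and 6.07 TPM, and in KO females 5.53, 3.24 and 4.51 TPM. The lowest KO liver was above the highest WT liver, a separation that 28.7% of all tested genes also show in that direction. Means were 0.868 ± 0.138 TPM in WT and 4.59 ± 1.07 TPM in KO (SD, n = 6 each), a ratio of 5.29. The log2(TPM + 1) difference was 1.56 (SE 0.14, limma adjusted p = 8.83e-07) and 1.26 after rescaling (limma adjusted p = 2.60e-06). The values by sex were 1.59 in males and 1.53 in females (rescaled 1.22 and 1.29), and the test of their difference gave 0.05 (95% interval -0.55 to 0.66, limma adjusted p = 0.96; rescaled -0.07). In absolute terms the level stayed low: Afp drew 566 reads over all 6 KO libraries and 128 over the 6 WT libraries, and its mean in KO ranked 8771 among the 16855 genes above 0. Alb, which encodes albumin, the adult serum protein of the same gene family, averaged 58427 TPM in the same KO livers. The antisense gene Gm43449 overlaps Afp over 9820 bases, so that without strand its reads could not be told apart from those of Afp.

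Igfbp1 (ENSMUSG00000020429, chromosome 11, 7197782 to 7202546, plus strand) was the one oncofetal gene at a high level in both genotypes, and WT livers differed widely among themselves. It stood at 1482, 644 and 41.8 TPM in WT males 1 to 3 and at 27.6, 44.6 and 101 TPM in WT females 1 to 3. In KO males it stood at 2055, 1256 and 848 TPM, and in KO females at 838, 1499 and 930 TPM. The KO livers spanned a 2.45-fold range and the WT livers a 53.7-fold range. Of the 6 WT livers 5 lay below the lowest KO liver, and only WT male 1 lay inside the KO range. Median TPM was 73.0 in WT and 1093 in KO, a ratio of 15.0, whereas the ratio of means was 3.17 because WT males 1 and 2 carry most of the WT sum. The log2(TPM + 1) difference was 3.14 (SE 0.74, limma adjusted p = 0.00297) and 2.68 after rescaling (limma adjusted p = 0.0167). The authors' deposited table lists a log2 fold change of 1.25 with a false discovery rate of 0.06, short of the threshold that the log-scale fit passed.

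The genotype difference in Igfbp1 passed in females and not in males. In females the KO livers averaged 1089 ± 358 TPM against 57.9 ± 38.7 TPM in WT (SD, n = 3 each), a ratio of 18.8 with no overlap, and the log2 difference was 4.37 (limma adjusted p = 0.00385) and 4.02 after rescaling. All 3 KO above all 3 WT livers is what 43.5% of tested genes show in females and 50.8% in males. In males the values were 1386 ± 614 TPM in KO and 723 ± 723 TPM in WT (SD, n = 3 each), with overlap, and the log2 difference was 1.91 (95% interval -0.17 to 4.00, limma adjusted p = 0.12) and 1.34 after rescaling. The difference between the sexes was itself tested and did not pass: the genotype by sex term was -2.45 (95% interval -5.39 to 0.49, unadjusted p = 0.0949, limma adjusted p = 0.63), and -2.68 after rescaling. Single WT males set these calls. Without WT male 1 the male difference was 2.97 and passed (limma adjusted p = 0.0203), and the genotype by sex term shrank to -1.40 (limma adjusted p = 0.79). Without WT male 3 it was 0.41, and the genotype by sex term became -3.96 and passed (limma adjusted p = 0.0134). The library identifier of WT male 2, unlike that of WT male 1, stands apart from the other 11 in the labels; whether this bears on its Igfbp1 level was not tested.

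WT males 1 and 2 shared more than Igfbp1. The 3 genes whose profile over the 12 libraries was nearest to that of Igfbp1 were Btg2, an antiproliferative gene, Cdkn1a, which encodes the cell cycle inhibitor p21, and Gadd45g, a stress-response gene. Their root mean square log2 distances were 0.59, 0.62 and 0.62 after each gene was centred on its own mean. Btg2 was at 281.5 and 192.8 TPM in WT males 1 and 2, at 6.56 to 10.6 TPM in the other WT livers and at 68.4 to 484 TPM in KO. Cdkn1a was at 26.9 and 27.2 TPM in WT males 1 and 2, at 0.763 to 1.36 TPM in the other WT livers and at 18.7 to 93.8 TPM in KO. Gadd45g was at 250.1 and 64.6 TPM in WT males 1 and 2, at 7.50 to 17.3 TPM in the other WT livers and at 100.3 to 202 TPM in KO. For all 3 genes the other 4 WT livers lay below every KO liver, and so did WT male 2 for Gadd45g. Nearness was the criterion by which they were chosen, so their likeness is a description.

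**Figure D2:**
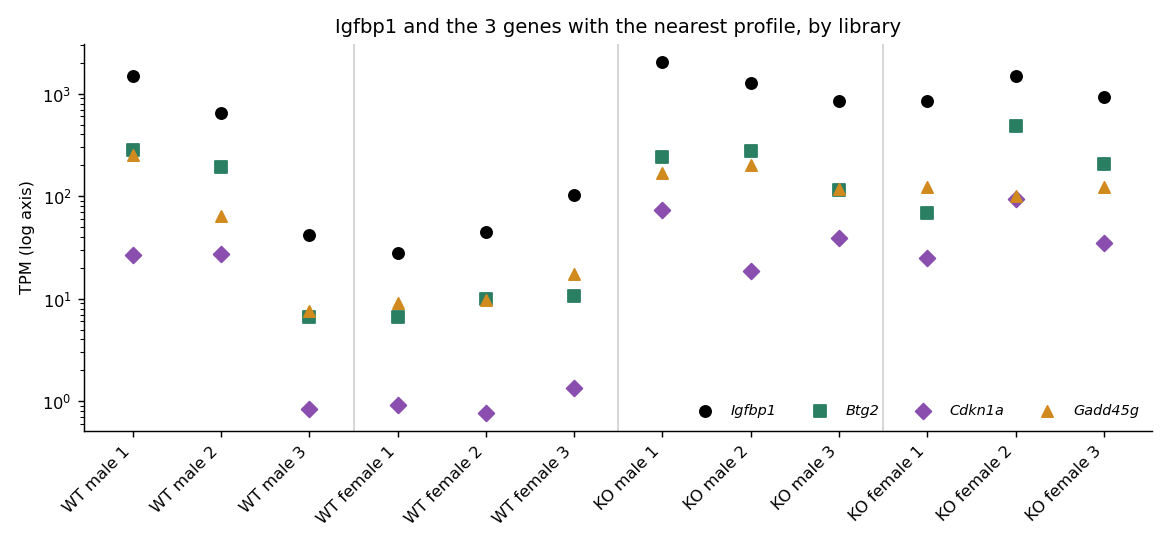
TPM on a logarithmic y axis of Igfbp1 (circles) and of Btg2, Cdkn1a and Gadd45g in each of the 12 livers (x axis, grouped by genotype and sex). WT males 1 and 2 sit inside the KO range or close to it for all 4 genes, and WT male 3 and the 3 WT females sit below.

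A list of genes known to be induced with Igfbp1 in fasting or stress gave a mixed picture. Of 13 tested genes, 5 were higher in KO and none lower (limma), with a median log2 difference of 0.35, equal to that of all genes. After rescaling, 2 were higher and 1 was lower, with a median of -0.11. Hmox1, which encodes the haem-degrading enzyme, rose in every KO liver, from 15.1 ± 3.54 to 59.1 ± 6.63 TPM (SD, n = 6 each; log2 difference 1.93, rescaled 1.48), and WT males 1 and 2 were at 9.82 and 13.9 TPM. Asns, which encodes asparagine synthetase, was at 2.57 ± 2.80 TPM in WT and 7.31 ± 1.94 TPM in KO, and passed on both scales. Atf3, a stress-induced transcription factor, followed the Igfbp1 pattern: it was at 68.3 and 18.6 TPM in WT males 1 and 2, at 1.17 to 2.28 TPM in the other WT livers and at 13.8 to 137 TPM in KO. Atf3 and Gadd45b, another stress gene, passed as deposited and not after rescaling (limma adjusted p = 0.0835 and 0.0983). G6pc and Pck1, the gluconeogenic enzymes that fasting induces, did not pass in either direction.

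Gpc3 (ENSMUSG00000055653, X chromosome, 52272426 to 52613950, minus strand) varied widely between animals of 1 genotype. It was at 0.305, 0.182 and 0.370 TPM in WT males and at 0.901, 0.631 and 1.80 TPM in WT females. It was at 1.19, 0.557 and 2.64 TPM in KO males and at 0.453, 3.66 and 2.58 TPM in KO females. Only 3 KO livers exceeded the highest WT liver. All 3 KO males exceeded all 3 WT males, as was so for 50.8% of all tested genes. Means were 0.697 ± 0.596 TPM in WT and 1.85 ± 1.30 TPM in KO (SD, n = 6 each). The log2(TPM + 1) difference of 0.67 (95% interval 0.08 to 1.27, unadjusted p = 0.0296) missed the threshold (limma adjusted p = 0.0532), and it was 0.47 after rescaling (limma adjusted p = 0.17). It passed with a pseudocount of 0.1 (limma adjusted p = 0.0499) and when WT female 3, KO male 2 or KO female 1 was left out, the last giving 0.91 (limma adjusted p = 0.00329). It was smaller, still higher in KO and short of the threshold, without KO male 3 (0.51, limma adjusted p = 0.13) and without KO female 2 (0.54, limma adjusted p = 0.11), and limma-voom on the recovered reads gave an adjusted p of 0.48. The authors' deposited table lists a log2 fold change of 1.40 with a false discovery rate of 0.07. Of the other glypicans, 3 of 5 were testable and 1 passed: Gpc1 was lower in KO, at 1.38 ± 0.710 against 3.82 ± 2.12 TPM (SD, n = 6 each; log2 difference -0.92, rescaled -1.23).

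Igf2 (ENSMUSG00000048583, chromosome 7, 142650766 to 142666816, minus strand) was at 1.09 TPM or less in all livers. It was at 0.215, 0.296 and 0.0417 TPM in WT males and at 0.176, 0.257 and 0.155 TPM in WT females. It was at 0.637, 0.622 and 0.354 TPM in KO males and at 0.237, 1.09 and 0.884 TPM in KO females. In 5 of 6 KO livers it was above the highest WT liver, and KO female 1 lay within the WT range. The reads were few, 73 over all WT libraries and 207 over all KO libraries. The log2(TPM + 1) difference was 0.44 (exact two-sided permutation of genotype within sex, p = 0.01, where 400 arrangements allow no p below 0.005), and 0.33 after rescaling (exact permutation p = 0.045). Over all genes without the filter on low values, the limma adjusted p was 0.00981, but limma-voom on the recovered reads gave 0.0903, and the authors' deposited table lists a false discovery rate of 0.35. An antisense gene, Igf2os, lies over Igf2, and A630012P03Rik and Gm14582 lie antisense to Gpc3. The same limit of strand holds for both genes as for Afp. Gm49394, a gene on the same strand as Igf2, overlaps it over 16048 bases, so that strand could not tell their reads apart. Gm49394 was listed at 0 TPM in every library.

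Dlk1 (ENSMUSG00000040856, chromosome 12) was close to undetected. It drew 2, 1 and 1 reads in WT males and 2, 0 and 0 in WT females. It drew 0, 5 and 0 reads in KO males and 0, 0 and 12 in KO females, so that 4 KO and 2 WT libraries had none. The 17 KO reads came from 2 animals. No difference was detectable at this depth (log2 difference 0.04, rescaled 0.03, exact permutation p = 0.52 as deposited).

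Cd24a (ENSMUSG00000047139, chromosome 10, 43578284 to 43584265, plus strand) had no stable direction over all mice. It was at 2.06, 1.88 and 1.32 TPM in WT males and at 2.14, 1.71 and 1.50 TPM in WT females. It was at 0.784, 1.42 and 2.42 TPM in KO males and at 2.48, 1.68 and 2.76 TPM in KO females. The KO livers lay on both sides of the WT range. The log2(TPM + 1) difference was 0.04 (95% interval -0.32 to 0.40, limma adjusted p = 0.85) and turned to -0.26 after rescaling (limma adjusted p = 0.21). Near-identical processed copies of Cd24a exist in the mouse genome, so its count is uncertain.

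**Figure D3:**
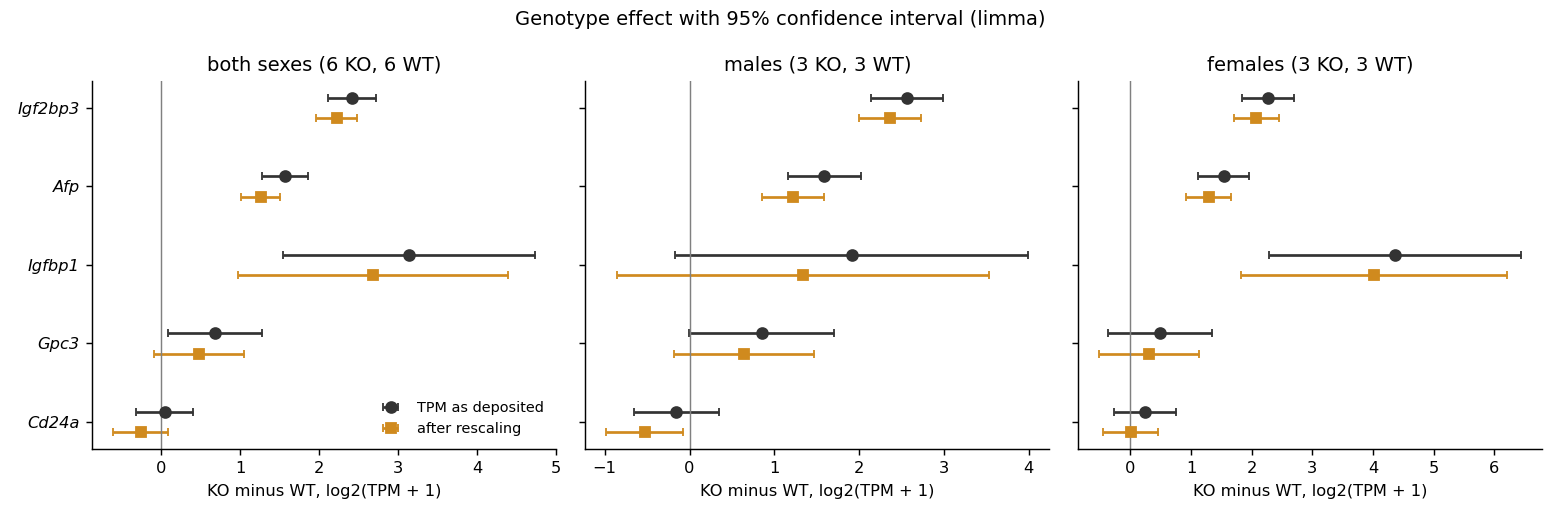
KO minus WT difference on the log2(TPM + 1) scale (x axis; each panel has its own range) for the 5 testable oncofetal genes in both sexes, males and females, as deposited (circles) and after rescaling (squares), with 95% confidence intervals from limma. The intervals of Igf2bp3 and Afp lie above 0 in every panel, that of Igfbp1 crosses 0 in males, and Cd24a moves across 0 with the scaling in the panel of both sexes.

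Split by sex, 2 of the 5 testable genes passed in males (Igf2bp3 and Afp), where 46.1% of all genes passed and 43.3% as higher, and 3 in females (with Igfbp1), where 33.8% passed and 29.1% as higher. Gpc3 also passed in males with a pseudocount of 0.1 (limma adjusted p = 0.0475), without KO male 2 (0.0486) and without KO female 1 (0.0309, through the shared spread), and in females without KO female 1 (log2 difference 0.99, limma adjusted p = 0.0391, against 0.49 with it). The Gpc3 differences were smaller without other libraries: 0.52 in males without KO male 3, against 0.85 with it (limma adjusted p = 0.33), and in females 0.15 without KO female 2 (limma adjusted p = 0.81) and 0.33 without WT female 2 (limma adjusted p = 0.64). None of the 5 differed between males and females in WT, where 5.74% of genes did, or in KO, where 0.0814% did. None had a genotype by sex term past the threshold, against 0.912% of genes. All of these are limma calls, and limma-voom on the recovered reads also gave 0 in each of the last 3 comparisons. At an unadjusted p under 0.05 there was 1 gene in WT, Igfbp1, with a male minus female log2 difference of 2.75 (limma adjusted p = 0.10), and it passed only when WT male 3 was left out, whereas without WT male 1 it was 1.70 (limma adjusted p = 0.29). There was none in KO and none for the genotype by sex term. The mice with the early animal numbers, WT female 3 and KO female 1, differed in the same direction as the groups for Igf2bp3 (0.0327 and 6.09 TPM), Afp (0.752 and 5.53 TPM) and Igfbp1 (101 and 838 TPM), and in the opposite direction for Gpc3.

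Around Igf2 and Igfbp1, the circulating IGF system did not move one way. Of 14 tested genes, 4 were higher and 4 lower in KO (limma), with a median log2 difference of 0.24 beside 0.35 for all genes. After rescaling 4 were higher and 7 lower, with a median of -0.18 beside -0.04. Among genes whose products form the large circulating IGF complexes, Igfals, the acid-labile subunit, fell from 112 ± 31.0 to 36.6 ± 12.7 TPM and Igfbp3 from 11.0 ± 4.89 to 3.47 ± 1.30 TPM (SD, n = 6 each; log2 differences -1.60 and -1.39). The ligand Igf1 fell from 129 ± 23.9 to 95.04 ± 23.9 TPM (log2 difference -0.45, limma adjusted p = 0.0262; rescaled -0.91), and Igfbp5, at 5.05 ± 3.39 and 3.20 ± 3.15 TPM, did not pass as deposited (limma adjusted p = 0.13) and did after rescaling (-0.90). Ghr, the growth hormone receptor, fell from 200.2 ± 26.9 to 95.9 ± 14.8 TPM, with all KO livers below all WT livers. Igfbp2, an abundant circulating IGF-binding protein, rose from 565 ± 155 to 1024 ± 164 TPM. Its log2 difference was 0.89 (limma adjusted p = 0.000249) and 0.42 after rescaling (limma adjusted p = 0.0396). All KO livers lay above all WT livers for Igfbp2, as was so for 28.7% of all tested genes. Igfbp7 rose from 63.8 ± 24.7 to 181 ± 90.5 TPM and Htra1, a secreted protease that cleaves IGF-binding proteins, from 1.76 ± 0.896 to 8.32 ± 3.21 TPM (log2 differences 1.45 and 1.73). Igf2r, the receptor that clears IGF2, rose from 10.1 ± 2.51 to 21.0 ± 6.91 TPM, while Igf1r was under the expression limit. Each of these genes except Igfbp5 and Igf1r passed on both scales.

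Among imprinted genes, which like Igf2 and Dlk1 are mostly active in fetal growth, 5 of 11 tested were higher and none lower (limma), with a median of 0.37 against 0.35 for all genes; after rescaling 3 were higher and 1 lower. Over all tested genes 50.1% were called higher, and 20.9% after rescaling. The 3 imprinted genes that held on both scales separated the genotypes completely, as 28.7% of all tested genes did in that direction. Phlda2, a placental growth restrictor, rose from 0.216 ± 0.350 to 8.04 ± 3.29 TPM, Sgce, which encodes epsilon-sarcoglycan, from 2.87 ± 0.829 to 20.2 ± 4.11 TPM, and Peg10, a retrotransposon-derived gene, from 0.248 ± 0.164 to 2.54 ± 1.67 TPM (SD, n = 6 each). Sgce and Peg10 are neighbours that share an imprinted region. Dcn, which encodes the matrix proteoglycan decorin, passed as deposited and not after rescaling (limma adjusted p = 0.15).

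None of 6 genes listed around the postnatal repression of Afp and H19 was called lower on either scale (limma). As deposited, 4 had an unadjusted p under 0.05, all as higher. Zhx2 and Zbtb20, which silence Afp after birth, did not pass, at 7.78 ± 0.955 and 8.02 ± 2.63 TPM in WT and 9.63 ± 2.55 and 9.77 ± 4.33 TPM in KO (SD, n = 6 each; limma adjusted p = 0.14 and 0.37). Their log2 differences were 0.25 and 0.22 as deposited and -0.17 and -0.20 after rescaling (limma adjusted p = 0.35 and 0.45). Zhx1, Zhx3, Zfhx3 and Trp53 were higher as deposited, and only Trp53 was after rescaling (log2 difference 0.39, limma adjusted p = 0.0345). Of the neighbours of Afp in the albumin gene family, Afm fell on both scales, from 177 ± 50.4 to 99.9 ± 11.7 TPM. Alb did not pass as deposited (log2 difference -0.27) and was lower after rescaling (-0.74), and Gc, the vitamin D carrier, was higher as deposited (0.41) and not after rescaling (-0.06).

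Of the fetal growth regulators related to Igf2bp3, 3 of 9 were testable and all 3 were higher (limma), beside 50.1% of all tested genes. After rescaling 2 were higher, beside 20.9% of all tested genes. Igf2bp2, a relative of Igf2bp3 that adult tissues also use, rose from 0.462 ± 0.201 to 2.18 ± 0.711 TPM (SD, n = 6 each). Hmga1, a chromatin architectural protein, rose from 16.7 ± 4.51 to 36.8 ± 6.43 TPM. Neither gene overlapped between genotypes, and 28.7% of all tested genes separated in that direction. Arid3a was higher as deposited and not after rescaling. The other 6, Igf2bp1, Lin28a, Lin28b, Hmga2, Sall4 and Mycn, were under the limit of 0.5 TPM; Lin28a was listed at 0 in every library.

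Hepatoblast and progenitor markers and other liver tumour genes moved more uniformly. All 8 tested progenitor markers were higher in KO and 6 remained called after rescaling, with a median log2 difference of 2.21 (rescaled 1.87) beside 0.35 (-0.04) for all genes. Spp1, which encodes osteopontin, rose from 33.8 ± 11.2 to 492 ± 195 TPM, Tnfrsf12a, the receptor of the cytokine TWEAK, from 6.93 ± 1.98 to 64.7 ± 12.7 TPM, Prom1 from 1.19 ± 1.24 to 15.4 ± 4.18 TPM and Tspan8 from 0.960 ± 0.581 to 11.8 ± 4.89 TPM (SD, n = 6 each). Among the tumour and fetal isoform genes, 16 of 17 were higher and 1 lower (rescaled 14 and 1), with a median of 1.82 (rescaled 1.50). Lipoprotein lipase, Lpl, which the liver makes before birth, rose from 7.68 ± 4.53 to 176 ± 53.1 TPM. Golm1, which encodes the tumour serum marker GP73, rose from 0.856 ± 0.246 to 18.8 ± 4.92 TPM, and the brain-type glycogen phosphorylase Pygb, a fetal isoform, from 1.96 ± 0.842 to 42.7 ± 12.7 TPM. Scd2, the desaturase of the fetal liver, rose from 2.65 ± 0.609 to 60.8 ± 22.6 TPM. The 1 lower gene was Glul, glutamine synthetase of pericentral hepatocytes, at 643 ± 128 TPM in WT and 399.7 ± 101 TPM in KO. Some genes of these lists, such as Spp1 and Sox9, are also bile duct markers.

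**Figure D4:**
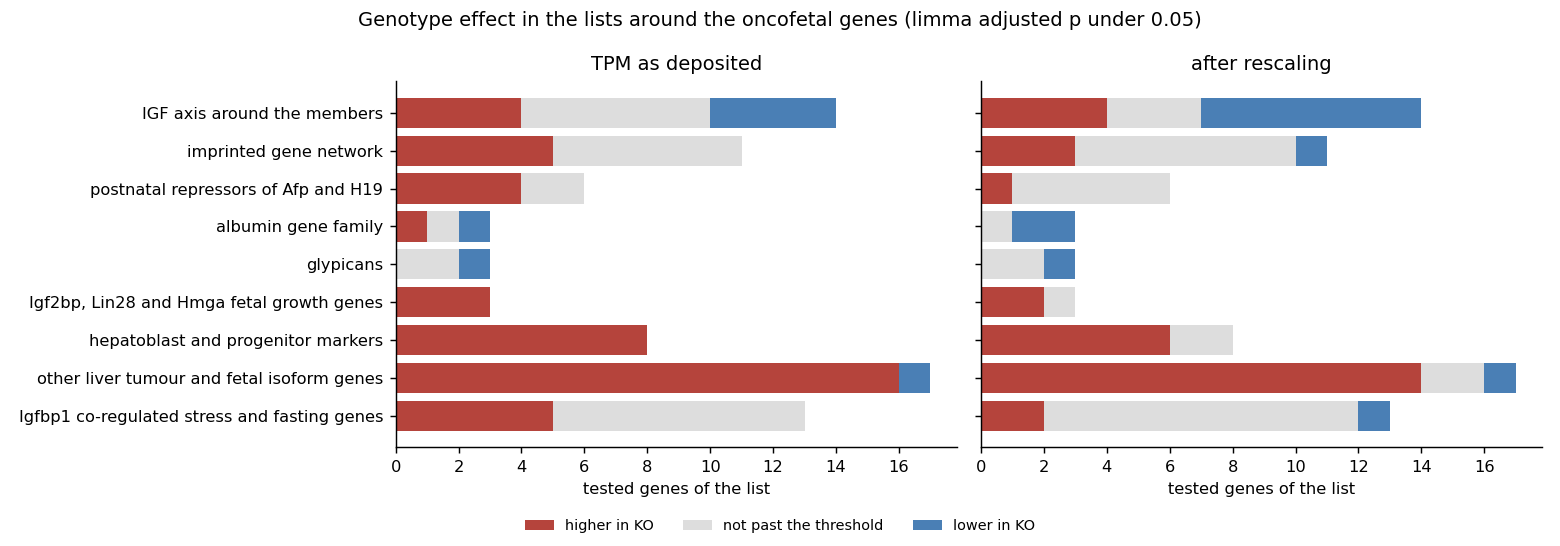
Number of tested genes (x axis) of 9 gene lists (y axis) that were higher in KO (red), lower in KO (blue) or not past the threshold (grey) by limma, as deposited and after rescaling. The progenitor list and the list of other tumour and fetal isoform genes are mostly red on both scales, with 6 of 8 and 14 of 17 after rescaling, and the IGF list has both directions.

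Markers of other liver cells moved with genotype in the same libraries. All 8 hepatocyte markers were detected, and their summed level was 92850 to 119479 TPM in WT and 61897 to 86449 TPM in KO, with no overlap. By limma 1 of the 8 was higher, 3 were lower and 4 did not pass (rescaled 4 lower and 4 not past), and most of the sum is Alb. The sum of 10 bile duct markers was 37.7 to 68.3 TPM in WT and 266 to 731 TPM in KO. Most of this sum was Spp1 in both genotypes. Of 6 tested bile duct markers, 4 were higher and 1 lower (rescaled 3 and 1), and Krt7, Muc1 and Cftr were under the limit. The 8 macrophage markers summed to 66.8 to 222 TPM in WT and 328 to 685 TPM in KO, and all 8 were higher. The 10 stellate cell and fibroblast markers summed to 27.5 to 53.3 TPM and 110 to 253 TPM, with 7 of 10 higher (rescaled 6 higher and 1 lower). The lower one was Lrat, the retinol-esterifying enzyme of stellate cells, at 5.68 ± 2.31 TPM in WT and 3.64 ± 1.65 TPM in KO (SD, n = 6 each; log2 difference -0.54, limma adjusted p = 0.0671; rescaled -0.91, limma adjusted p = 0.00334). The 8 proliferation markers summed to 2.76 to 8.50 TPM and 21.3 to 46.3 TPM, with all 8 higher. All 8 macrophage and all 8 proliferation markers were also higher after rescaling. B cell, T and NK cell, neutrophil, endothelial, mesothelial and erythroid sums overlapped between genotypes. By limma, 4 of 6 tested neutrophil, 2 of 3 B cell and 3 of 6 mesothelial markers were higher, and of 7 endothelial markers 2 were higher and 1 lower (rescaled 1, 1 and 2 higher, and 1 higher and 2 lower). None of 3 T and NK cell or 5 erythroid markers passed, also at an unadjusted p under 0.05, and Ighm and Trac were at 0 in every library. The part of these shifts in the rise of Igf2bp3, Afp and Igfbp1 was not tested.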

How the data were processed

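The deposited table, per the file headers, held 25676 genes with 1 TPM column per mouse, beside the authors' own fold changes, log2 fold changes and false discovery rates (p-values adjusted by the authors, to 2 decimals), of which only members' values are quoted. Per the submitters' processing notes the authors used edgeR and build GRCm38; aligner, counter and use of strand are not given in the sources used here. Samples were grouped by title. From the deposited TPM, log2(TPM + 1) was fitted with limma 3.58.1 in R 4.3.3 (empirical Bayes with a trend, genes with a mean of at least 0.5 TPM): genotype with sex as covariate over 12 libraries, and the within-sex, sex and interaction contrasts from 1 model of 4 group means. Rescaling used median-of-ratios size factors. Whole reads were recovered for 17326 of 17332 genes above 0 (tolerance 1e-05) and used for intervals and, as an alternative chosen after seeing the data, limma-voom. Scripts were tested on simulated data. GENCODE vM21 and RefSeq gave positions and promoters. The members and all lists were chosen with earlier results of these data known. Named genes are the members, up to 4 genes per list past the threshold with the largest change, the 3 nearest profiles of each tested member, and Yap1; Alb, Ghr, Igf1, Igfbp2, Igfbp5, Lrat, Igf2r, Igf1r, Zhx2, Zbtb20, G6pc, Pck1, Glul, Malsu1 and genes named as under the limit were chosen after their values were seen. Alternatives were another scaling, TPM without Mup genes, other pseudocount and filters, no trend, the early animal numbers as covariate, and leaving out each library.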

Additional observations from a re-analysis of the deposited data

How the results depend on the processing

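The calls of Igf2bp3 and Afp, over all mice and in each sex, and of Igfbp1 over all mice and in females, kept their direction and their side of the threshold in all 20 alternatives. The log2 difference over all mice ranged from 1.49 to 1.64 for Afp, from 2.32 to 2.49 for Igf2bp3 and from 2.61 to 3.74 for Igfbp1 when 1 library was left out. Removing the Mup genes from TPM gave 1.50, 2.41 and 3.01. A pseudocount of 0.1 gave larger log2 differences, of 2.26 for Afp, 5.15 for Igf2bp3 and 3.16 for Igfbp1. It also gave 1.24 for Gpc3 and 1.29 for Igf2, against 0.67 and 0.44 with a pseudocount of 1. Cd24a had no stable sign over all mice: it was -0.26 after rescaling, -0.0418 without Mup genes and -0.35 by limma-voom. With 1 library left out it was -0.0429 to 0.17 over all mice, and -0.40 to 0.0748 in males. In females the Cd24a difference was 0.24, and 0.0032 after rescaling. It stayed above 0 and short of the threshold there in all 20 alternatives. Dlk1 ranged from -0.00068 to 0.0656 with 1 library left out, the lowest without KO female 3. The number of members past the threshold ranged from 0 to 1 for the sex difference in WT and from 0 to 1 for the genotype by sex term; the 1 gene was Igfbp1, without WT male 3 (log2 differences 4.26 and -3.96, against 1.70 and -1.40 without WT male 1). Over all genes, the male genotype effect fell from 5663 calls to 2959 after rescaling, 3697 without Mup genes and 2963 by limma-voom. The sex difference in WT moved from 705 calls to 454 without Mup genes, 409 with the early animal numbers as covariate, and between 291 (without WT male 2) and 1698 (without WT male 3). Sex differences in KO numbered 10, and 6 by limma-voom or without KO male 2; the genotype by sex term 112, 73 by limma-voom and 75 to 176 with 1 library left out (lowest without WT female 2, highest without WT male 3). The cause of these shifts was not tested. With a lone library taken from a group of 3, the spread is shared over all groups. Depth limits Dlk1, with 23 or fewer reads in all, and the WT level of Igf2bp3. No paired analysis was possible because the labels carry no replicate numbers that groups share.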

Other observations

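Other genes tracked the remaining oncofetal genes across the 12 livers, as measured by the root mean square difference of centred log2(TPM + 1) values over 12273 genes; these are descriptions, since nearness was the criterion. Nearest to Afp were Sla, an adaptor of lymphocyte signalling (distance 0.13; mean 0.691 TPM in WT and 3.73 TPM in KO), P2rx7, an ATP-gated ion channel (0.14; 0.523 and 3.46 TPM), and Arrb1, which encodes beta-arrestin 1 (0.16; 2.71 and 9.52 TPM). Nearest to Igf2bp3 were Mogat2, an acyltransferase of triglyceride synthesis (0.18; 0.490 and 7.24 TPM), Cldn23, a claudin (0.20), and Adam11 (0.20; 3.19 and 22.5 TPM). Cldn23 was listed at 0 in all 6 WT livers and at 2.92 to 6.71 TPM in KO. In KO female 1, where Igf2bp3 was highest among KO livers, Adam11 was also highest, at 37.6 TPM.

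The neighbours of Gpc3 were farther away: Adgrd1, an adhesion receptor (0.30), Ltbp1, a binding protein of latent TGF-beta (0.31), and Sulf2, a sulfatase that trims heparan sulfate chains (0.31). All 3 were higher in WT females than in WT males, as Gpc3 was, with Sulf2 at 5.35 to 7.80 TPM in WT females and 2.52 to 3.41 TPM in WT males. For Gpc3 itself the WT male minus female log2 difference was -0.68 (95% interval -1.54 to 0.18, limma adjusted p = 0.29). Nearest to Cd24a were Cbfa2t3, a transcriptional co-repressor (0.16), Gata4, a liver transcription factor (0.17), and Ano1, a chloride channel (0.17), with mean TPM of 0.628, 6.61 and 0.562 in WT and 0.854, 7.62 and 0.586 in KO.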
